A study of Mus musculus with 12 samples.

Results

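The genes described here are 10 heat shock chaperones and close partners of the cytosol and the mitochondrion: Hsp90aa1, Hsp90ab1, Hsph1, Hspd1, Hspe1, Hspa8, Hspa1a, Hspa1b, Dnajb1 and Bag3. They were found by matching these symbols to the Ensembl identifiers of the deposited count table, which gave 10 of its 57010 genes, and all 10 passed the filter on low counts. They were selected on the level of Hsp90aa1, which earlier results of the same libraries had shown to be lower in challenged Tim4-deficient than in challenged wild-type cells. The genotype comparison among challenged cells, and the difference between the challenge responses of the genotypes, are therefore given as descriptions without a test. The challenge tests use the same ID8 libraries. For Hsp90aa1 the selection can therefore enlarge the WT change and shrink the Tim4KO change. Members that vary with Hsp90aa1 between the libraries of a group can carry part of the same shift.

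Large peritoneal macrophages, which reside in the abdominal cavity, were sorted as F4/80 high and MHC class II low from female mice. There were 4 groups of 3 RNA-seq libraries each: naive wild-type mice (WT naive), naive mice lacking the scavenger receptor Tim4 (Tim4KO naive), and mice of each genotype 24 h after ID8 cells had been injected into the peritoneal cavity (WT ID8 and Tim4KO ID8). Injected mice were 8 weeks old; the age of the naive mice is not given in the sources used here. ID8 is a mouse ovarian tumour line, here carrying the fluorescent protein ZsGreen and ovalbumin. Only ZsGreen-positive macrophages were taken from challenged mice, so challenge, uptake of tumour material and the sort for it are compared together. The labels do not say how the Tim4 allele was made, or whether the 3 libraries of a group came from separate mice; p-values measure the spread between these libraries, which may in part be technical.

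Chaperones bind proteins that are not fully folded and let them fold, move or be degraded. Cytosolic HSP70 (Hspa8 and the inducible Hspa1a and Hspa1b) works in ATP-driven cycles that J-domain proteins such as Dnajb1 start and that exchange factors such as Hsph1 and Bag3 help to end, and it passes clients on to HSP90. In the mitochondrial matrix the ring chaperonin Hspd1 and its lid Hspe1 fold imported proteins. Many of these genes are targets of heat shock factor 1, which binds repeats of the motif nGAAn in their promoters.

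Promoters are shown first because the members share such motifs to different degrees. RefSeq (GRCm38.p6) held promoter sequences for 7 of the 10 genes, and Hsp90aa1, Hsp90ab1 and Hspa8 were not among those matched. The 250 bases before the annotated start were searched for GAANNTTC and TTCNNGAA, adjoining pairs of the heat shock element. Each is its own reverse complement, so both strands were covered, and matches could overlap. At least 1 pair was present in 5 of the 7 genes (Hspa1a, Hspa1b, Hspd1, Hspe1 and Hsph1), against 14.55% of 27025 mouse genes, and none was found in the windows of Bag3 and Dnajb1. A run of 3 units (GAANNTTCNNGAA or TTCNNGAANNTTC) was found for Hspd1 and Hspe1, against 0.5143% of genes. These genes lie head to head on chromosome 1 and share the stretch that holds the run, so the 2 matches are 1 piece of DNA. Their pairs lie in that same stretch, and the Hspa1a and Hspa1b windows are nearly the same sequence. The 5 genes with a pair are thus not 5 separate cases. A match of letters is a description and does not show that a factor is bound there. Capitals mark the matched pairs in each stretch, written 5′ to 3′ on the strand of the gene.
Hspe1, chr1:55088053-55088082, plus strand: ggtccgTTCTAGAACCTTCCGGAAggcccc
Hspd1, chr1:55088053-55088082, minus strand: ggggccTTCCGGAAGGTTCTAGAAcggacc
Hsph1, chr5:149636351-149636380, minus strand: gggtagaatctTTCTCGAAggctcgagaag
Hspa1a, chr17:34972157-34972306, minus strand: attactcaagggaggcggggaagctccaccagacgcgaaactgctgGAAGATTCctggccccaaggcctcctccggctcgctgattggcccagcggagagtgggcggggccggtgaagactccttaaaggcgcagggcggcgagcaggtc
Hspa1b, chr17:34959239-34959388, minus strand: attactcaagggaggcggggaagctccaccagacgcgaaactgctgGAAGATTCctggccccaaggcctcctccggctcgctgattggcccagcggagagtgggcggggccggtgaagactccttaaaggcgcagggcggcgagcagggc

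The last pair shows how alike the inducible HSP70 genes are: their printed promoter stretches differ at 1 of 150 bases, and the 250-base windows differ at 3. Their transcripts are 99.2% identical over 2201 bases, so the split of reads between Hspa1a and Hspa1b is uncertain.

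Total counts per library ran from 7358559 to 23170244, and levels are given as CPM, counts scaled to the library total with TMM factors. The floor of 3 counts that separates a level from 0 lay at 0.137 to 0.399 CPM. Timd4, the gene that encodes Tim4, reached 882 to 1489 CPM in the 6 WT libraries and 1.38 to 7.71 CPM in the 6 Tim4KO libraries, as the labels imply. Macrophage markers were high in every library (Adgre1 at least 2569 CPM, Gata6 at least 120 CPM). The 10 epithelial or tumour markers together gave 1.60 to 5.54 CPM in ID8 libraries and 5.74 to 25.1 CPM in naive ones; none of them was at 0 in all ID8 libraries, and none exceeded 1.85 CPM in an ID8 library. Library WT ID8 3 stood apart. The chi-square over its degrees of freedom was 46.4 against WT ID8 1 and 78.5 against WT ID8 2. It was at most 21.6 for the other pairs within groups. This measure also grows with depth, and the part of depth was not tested. WT ID8 3 had the most counts (23170244) but the fewest genes detected (21235, against 24347 to 40365 elsewhere). Its 16 cell cycle genes summed to 3127 CPM, against 632 to 954 CPM in the other ID8 libraries. Most log2 differences of members that rest on WT ID8 3 are given with and without it, some of them in the closing section. Most list values and all correlations are given only with it. In these bulk samples fewer cells with a transcript and less RNA per cell cannot be told apart.

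**Figure D1:**
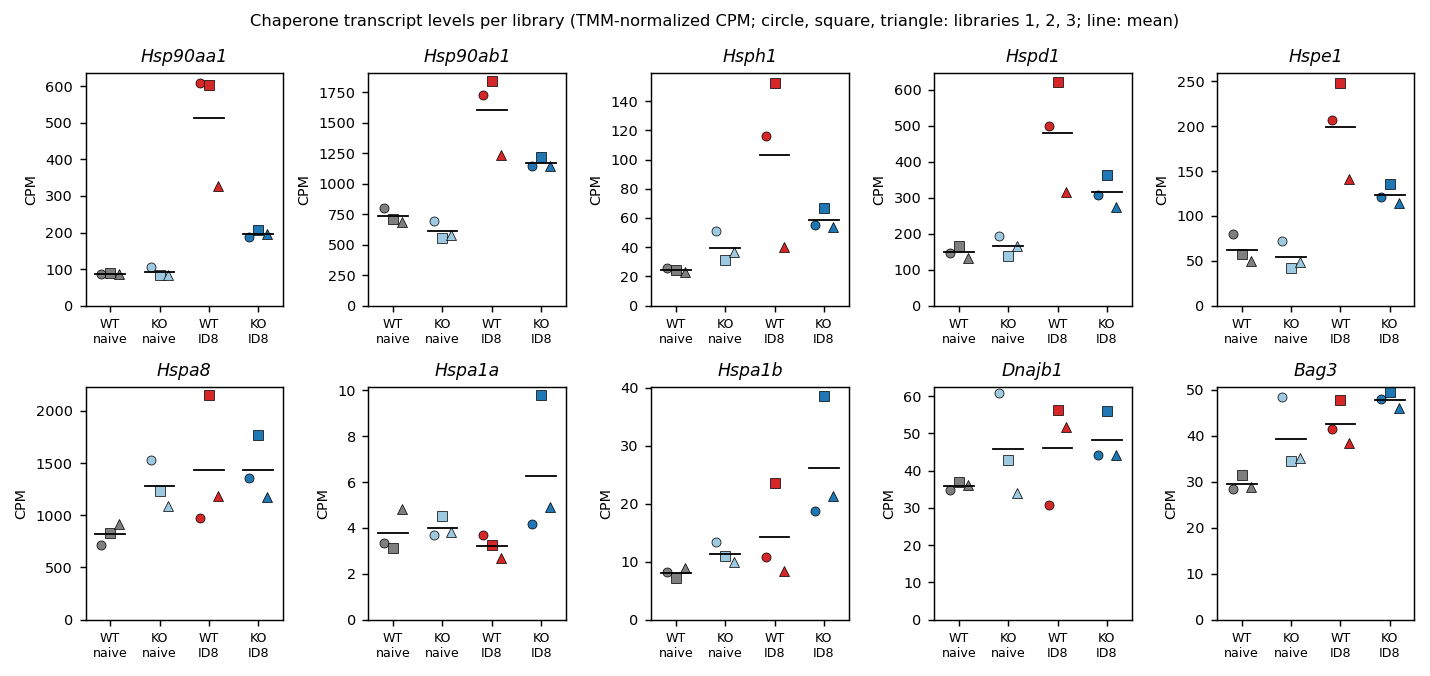
Level of each of the 10 chaperone genes (CPM, one panel per gene) in the 12 libraries, grouped by condition and genotype; points are libraries and lines are group means. Hsp90aa1 sits between 84.8 and 107 CPM in all naive libraries, between 187 and 208 in Tim4KO ID8 and between 327 and 609 in WT ID8.

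Levels of different genes were set side by side as CPM per kilobase of exon. The length counts every annotated exon of a gene, merged over isoforms, so ranks between genes depend on it. On this scale the constitutive genes led in every group. Hsp90ab1 averaged 244 CPM per kb in naive WT, 204 in naive Tim4KO, 534 in challenged WT and 389 in challenged Tim4KO cells. Hspa8 averaged 190, 298, 334 and 333 CPM per kb in the same order and stood above Hsp90ab1 only in Tim4KO naive. That rank rests on merged lengths of 4.301 kb for Hspa8 and 2.999 kb for Hsp90ab1. In CPM Hspa8 averaged 819, 1281, 1438 and 1432 and Hsp90ab1 732, 611, 1601 and 1167, so Hspa8 was lower only in WT ID8. Hspd1, Hspe1 and Hsp90aa1 followed, with 22.3 to 56.2 CPM per kb in WT naive and 130 to 181 in WT ID8. Inducible Hspa1a was the least abundant in every group, with means of 1.08 to 2.12 CPM per kb, and Hspa1b came next with 2.90 to 9.35, except in Tim4KO ID8, where its mean was above that of Hsph1 (8.06). In CPM Hspa1b stayed below Hsph1 there (26.2 against 58.6). The merged length of Hsph1 is 7.266 kb and that of Hspa1b 2.803 kb.

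Challenge raised much of the set in WT cells. In edgeR's quasi-likelihood fit, 7 of the 10 genes were higher in WT ID8 than in WT naive at an adjusted p under 0.05 and 0 were lower, while 19.5% of the 15943 tested genes were called higher and 12.3% lower. The 7 are Hsp90aa1, Hsph1, Hspd1, Hspe1, Hsp90ab1, Hspa8 and Bag3, and for the same 7 the groups did not overlap, against 23.3% of all genes in that direction. The median log2 change of the 10 was 0.97, and that of all tested genes was -0.04. In Tim4KO cells 5 of the 10 were higher after challenge (Hsp90aa1, Hsp90ab1, Hspd1, Hspe1 and Hspa1b) and 0 lower, against 11.5% and 5.06% of all genes. There the median was 0.78 beside -0.05 for all genes, and 6 of the 10 did not overlap, against 23.7%. Without Tim4KO naive 2 the count in Tim4KO fell to 3. The counts of both genotypes include Hsp90aa1, on which the set was selected. With group means removed, its log2 level correlated at 0.97 with Hsph1, 0.92 with Hsp90ab1, 0.85 with Hspd1 and 0.74 with Hspe1. With the other members it correlated at -0.02 to 0.64. The selection can therefore reach more members than Hsp90aa1, and the counts are not free of it.

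Several marker lists also differed between naive and ID8 libraries. The 10 markers of large peritoneal macrophages, none of them at 0, summed to 61357 to 72003 CPM in naive and 28105 to 34836 CPM in ID8 libraries. Their members did not move together, since the means of 6 (Lyz2, Alox15, Csf1r, Vsig4, Prg4 and Cd93) were lower and those of 4 (Adgre1, Itgam, Icam2 and Gata6) higher after challenge in both genotypes. Lyz2, by far the most abundant, averaged 45845 CPM in WT naive and 12773 in WT ID8. The 16 cell cycle genes summed to 273 to 470 CPM in naive libraries and at least 632 in ID8 ones. In Tim4KO the means of 9 of them, the replication genes Mcm2, Mcm3, Mcm5 and Mcm6 included, were higher after challenge, and 7 (Mki67, Top2a, Ccnb1, Ccnb2, Aurka, Birc5 and Plk1) were lower. In WT all 16 means were higher, but Ccnb2 reached 105 CPM in WT ID8 3 and lay at 1.15 and 2.58 CPM in the other WT ID8 libraries, below the 6.17 to 18.5 CPM of WT naive. Among lists of other cell types, 6 neutrophil markers summed to 5.73 to 8.61 CPM in naive and 9.81 to 28.4 CPM in ID8 libraries. Of their means 3 were higher and 3 lower after challenge in WT, and 4 higher and 2 lower in Tim4KO. The 5 mast cell markers went from 12.5 to 34.9 CPM down to 1.73 to 9.07, with all 5 means lower in both genotypes. The 6 markers of small macrophages and dendritic cells summed to 38.2 to 62.4 CPM in naive and 9.97 to 27.2 in ID8 libraries. There 1 mean was higher and 5 lower in WT, but in Tim4KO 4 were higher and 2 (Cd209a and Zbtb46) lower. The 5 B cell markers gave 7.21 to 20.1 CPM in naive and 3.27 to 7.48 in ID8 libraries, and the 6 T and NK cell markers 3.46 to 5.63 and 2.78 to 8.07. B cell means were lower after challenge for 5 markers in WT and 4 in Tim4KO. T and NK means were lower for 3 and 2. The part of any of these in the chaperone changes was not tested.

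Hsp90aa1, the stress-inducible cytosolic HSP90, showed the largest change of the 10 in WT cells. Its level was 87.3, 88.4 and 87.4 CPM in naive WT and 107, 85.2 and 84.8 CPM in naive Tim4KO. It reached 609, 603 and 327 CPM in challenged WT and 187, 208 and 195 CPM in challenged Tim4KO cells. The 4 groups thus held 3 separate ranges, since the naive genotypes overlapped, every Tim4KO ID8 library lay above them, and every WT ID8 library lay above those. The lowest of the WT ID8 values belonged to WT ID8 3. In WT the challenge raised Hsp90aa1 5.85-fold (log2 2.55, SE 0.20, edgeR adjusted p = 1.53e-06) and in Tim4KO 2.13-fold (log2 1.09, SE 0.19, edgeR adjusted p = 0.00153). Without WT ID8 3 the WT change was 2.81 on the log2 scale. Both challenge tests use the ID8 libraries in which this gene was selected, so their p-values are not free of that selection. The 3 near-identical pseudogenes of Hsp90aa1 in the table held counts equal to 3.16% of its own.

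Hsp90ab1, the constitutive cytosolic HSP90, changed less and from a higher base. It stood at 801, 714 and 683 CPM in naive WT, 695, 556 and 581 CPM in naive Tim4KO, 1728, 1840.3 and 1235 CPM in challenged WT and 1141, 1216 and 1145 CPM in challenged Tim4KO cells. All 6 ID8 libraries lay above all 6 naive ones. The rise was 2.19-fold in WT (log2 1.13, SE 0.15, edgeR adjusted p = 0.000106) and 1.91-fold in Tim4KO (log2 0.93, SE 0.15, edgeR adjusted p = 0.000898).

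The balance between the HSP90 forms moved with the group. On the per-kilobase scale Hsp90aa1 made up 7.68%, 8.64% and 8.90% of the sum of both in naive WT and 10.5%, 10.5% and 10.0% in naive Tim4KO. The share was 21.2%, 20.0% and 16.8% in challenged WT and 11.1%, 11.6% and 11.5% in challenged Tim4KO cells. No Tim4KO library, challenged or naive, reached the lowest WT ID8 share, and the ranges of the 4 groups did not overlap. The share contains Hsp90aa1, which was selected as lower in Tim4KO ID8 than in WT ID8. The gap between these groups is therefore not a finding apart from that selection. No test is given, and with 3 libraries against 3 an exact permutation test could not fall below 0.10.

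Hsph1 encodes an HSP110 protein that exchanges nucleotide on HSP70. It was at 25.7, 24.8 and 22.8 CPM in naive WT, 50.8, 31.6 and 36.8 in naive Tim4KO, 116, 153 and 40.3 in challenged WT and 55.0, 66.6 and 54.0 in challenged Tim4KO cells. WT ID8 3, at 40.3 CPM, lay below every Tim4KO ID8 library and inside the Tim4KO naive range, while its 2 companions were the highest of all 12. The WT change was 4.20-fold (log2 2.07, SE 0.40, edgeR adjusted p = 0.00353), and 2.49 on the log2 scale without WT ID8 3. In Tim4KO the log2 difference was 0.55 (SE 0.38, edgeR adjusted p = 0.377). That value passed the threshold only once WT ID8 3 was left out of the shared estimate of the spread (log2 0.57, edgeR adjusted p = 0.0111) or when the Tim4KO libraries were fitted alone (edgeR adjusted p = 0.0378).

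Set against Hspa8, the HSP70 it serves, Hsph1 amounted per kilobase to 2.13%, 1.76% and 1.48% in naive WT and 1.97%, 1.52% and 2.01% in naive Tim4KO. It came to 7.03%, 4.19% and 2.02% in challenged WT and 2.41%, 2.24% and 2.71% in challenged Tim4KO cells. WT ID8 3 was again within the naive range, and the other WT ID8 libraries were above all the rest.

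**Figure D2:**
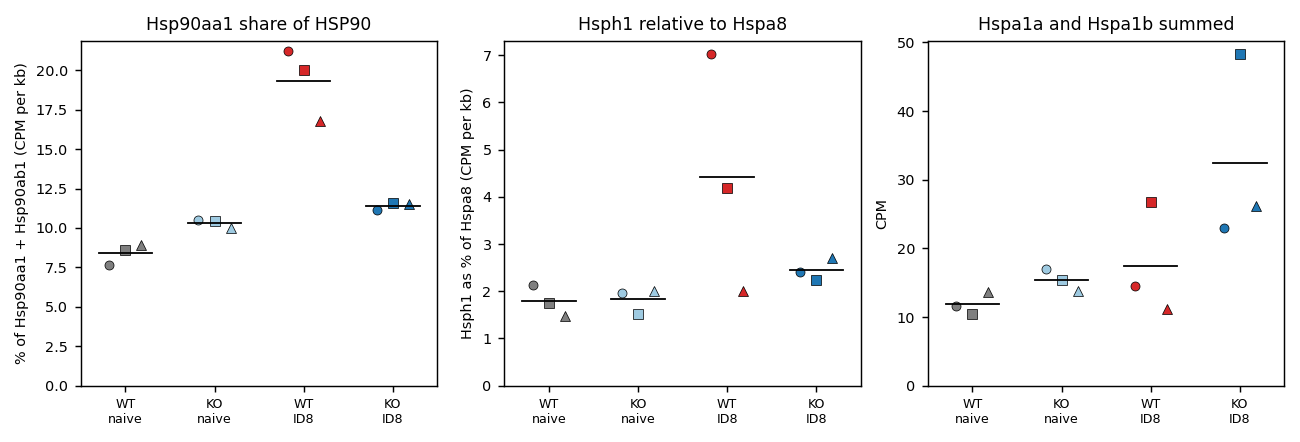
Hsp90aa1 as a percentage of Hsp90aa1 plus Hsp90ab1 and Hsph1 as a percentage of Hspa8 (both from CPM per kb), and the summed CPM of Hspa1a and Hspa1b, per library (circle, square and triangle for replicates 1, 2 and 3; lines are group means). The Hsp90aa1 share is 16.8% to 21.2% in WT ID8 and at most 11.6% elsewhere, and the summed inducible HSP70 is highest in Tim4KO ID8 2, at 48.4 CPM.

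The mitochondrial pair rose in both genotypes. Hspd1, the chaperonin ring, was at 147, 167 and 131 CPM in naive WT, 193, 138 and 167 in naive Tim4KO, 499, 622 and 317 in challenged WT and 308, 364 and 274 in challenged Tim4KO cells. Hspe1, its lid, was at 79.5, 57.5 and 50.1 CPM in naive WT, 72.3, 42.1 and 48.9 in naive Tim4KO, 207, 249 and 142 in challenged WT and 121, 136 and 114 in challenged Tim4KO cells. For both genes every ID8 library lay above every naive one.

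Hspd1 changed 3.22-fold in WT (log2 1.69, SE 0.21, edgeR adjusted p = 8.2e-05) and 1.90-fold in Tim4KO (log2 0.93, SE 0.21, edgeR adjusted p = 0.00834). Without Tim4KO naive 2, its Tim4KO value was 0.82 with an adjusted p of 0.0509 in edgeR. Hspe1 changed 3.20-fold in WT (log2 1.68, SE 0.24, edgeR adjusted p = 0.000215) and 2.27-fold in Tim4KO (log2 1.18, SE 0.24, edgeR adjusted p = 0.00425). Per kilobase, Hspd1 stood at 1.03 to 1.91 times Hspe1 in naive libraries and 1.25 to 1.49 times in ID8 libraries, ranges that overlapped. The genes share 112 exonic bases on opposite strands, 4.24% of Hspd1 and 7.60% of Hspe1, and whether counting used strand is not given in the sources used here.

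The HSP70 genes behaved less uniformly. Hspa8, the constitutive HSP70, was at 713, 832 and 912 CPM in naive WT, 1529, 1231 and 1084 in naive Tim4KO, 976, 2154 and 1183 in challenged WT and 1353, 1764 and 1178 in challenged Tim4KO cells. The WT naive libraries were the lowest 3 of all 12, and the other groups overlapped. The WT change was 1.76-fold (log2 0.81, SE 0.26, edgeR adjusted p = 0.0291) and leaned on WT ID8 2, without which it was 0.43 with an adjusted p of 0.124 in edgeR. It also missed the threshold without any 1 of the WT naive libraries, at 0.73 to 0.92 on the log2 scale. In edgeR the adjusted p was 0.0796 with upper-quartile scaling (log2 0.55), 0.0566 at a mean count of at least 50 (0.63) and 0.0864 in the fit to the WT libraries alone (0.70). In Tim4KO the difference was 0.16 (SE 0.25, edgeR adjusted p = 0.712). Small nucleolar RNA genes lie within Hspa8, and 5 near-identical pseudogenes in the table held counts equal to 1.27% of its own.

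Hspa1a and Hspa1b, the inducible HSP70 genes, stayed low throughout. Hspa1a had 31 to 106 counts per library, or 3.36, 3.14 and 4.82 CPM in naive WT, 3.69, 4.53 and 3.83 in naive Tim4KO, 3.68, 3.27 and 2.69 in challenged WT and 4.15, 9.78 and 4.90 in challenged Tim4KO cells. Hspa1b was at 8.23, 7.28 and 8.87 CPM in naive WT, 13.4, 10.9 and 9.97 in naive Tim4KO, 10.8, 23.5 and 8.49 in challenged WT and 18.8, 38.6 and 21.3 in challenged Tim4KO cells. The highest library of the set for both was Tim4KO ID8 2. Hspa1b rose 2.29-fold in Tim4KO (log2 1.20, SE 0.35, edgeR adjusted p = 0.0362), a call made in only 4 of the 12 fits that each left out 1 library, with a largest adjusted p of 0.137. The libraries whose removal ended it were the 3 WT naive, the 3 Tim4KO naive, and Tim4KO ID8 2 and 3, with log2 values of 0.85 to 1.35.

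In WT the Hspa1b difference was 0.81 (SE 0.36, edgeR adjusted p = 0.0989), and it passed without WT ID8 1 (1.03), WT ID8 3 (1.13, adjusted p = 0.0341 in edgeR) or Tim4KO ID8 2 (0.85). Hspa1a differed by -0.25 in WT (SE 0.32) and 0.64 in Tim4KO (SE 0.31), with edgeR adjusted p of 0.555 and 0.184.

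Because reads cannot be split safely between the twin genes, their counts were also summed. The sum was 11.6, 10.4 and 13.7 CPM in naive WT, 17.1, 15.4 and 13.8 in naive Tim4KO, 14.5, 26.8 and 11.2 in challenged WT and 22.9, 48.4 and 26.2 in challenged Tim4KO cells. Every Tim4KO ID8 library exceeded every naive one, and WT ID8 overlapped WT naive. The summed gene rose in Tim4KO (log2 1.07, SE 0.32, edgeR adjusted p = 0.0388) and differed by 0.55 in WT (SE 0.33, edgeR adjusted p = 0.203). Hspa1b held 64.8% to 87.8% of the pair's counts.

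The remaining co-chaperones, Dnajb1 and Bag3, showed small differences. Dnajb1, a J-domain protein that stimulates HSP70, was at 34.8, 36.9 and 36.3 CPM in naive WT, 60.9, 43.0 and 34.0 in naive Tim4KO, 30.8, 56.2 and 51.6 in challenged WT and 44.2, 56.0 and 44.3 in challenged Tim4KO cells. Of the 4 groups only WT naive and Tim4KO ID8 did not overlap. Its log2 difference was 0.37 in WT (SE 0.22, edgeR adjusted p = 0.210) and 0.07 in Tim4KO (SE 0.22, edgeR adjusted p = 0.864), and only without WT ID8 1 did the WT value pass (0.65, edgeR adjusted p = 0.0139).

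Bag3, an exchange factor that links HSP70 to autophagy, was at 28.5, 31.5 and 28.8 CPM in naive WT, 48.4, 34.5 and 35.2 in naive Tim4KO, 41.4, 47.8 and 38.5 in challenged WT and 48.0, 49.6 and 46.1 in challenged Tim4KO cells. WT naive lay below all other libraries. Bag3 rose 1.44-fold in WT (log2 0.52, SE 0.14, edgeR adjusted p = 0.0122), a call that upper-quartile scaling ended (log2 0.28, adjusted p = 0.10 in edgeR). In Tim4KO its value was 0.28 (SE 0.14, edgeR adjusted p = 0.195), and 0.48 without Tim4KO naive 1 (edgeR adjusted p = 0.0260).

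**Figure D3:**
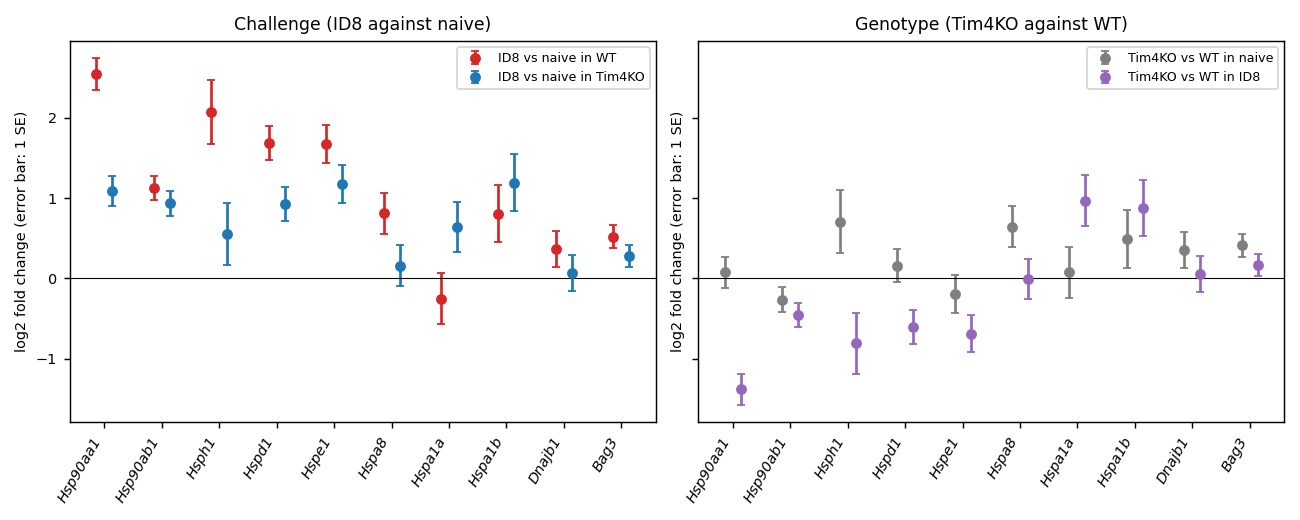
Log2 fold changes of the 10 genes with 1 SE (edgeR): ID8 against naive in each genotype on the left, Tim4KO against WT in each condition on the right. Hsp90aa1 (2.55) and Hsph1 (2.07) head the WT challenge values, and in challenged cells the genotype values run from -1.38 for Hsp90aa1 to 0.97 for Hspa1a.

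In naive cells edgeR called 0 of the 10 members between the genotypes (2 had an unadjusted p under 0.05, and DESeq2 and limma voom called 0). With no filter on low counts edgeR called 1, Hspa8, higher in Tim4KO (log2 0.65, edgeR adjusted p = 0.0307). Of all tested genes 0.0439% were called. The median of the 10 was 0.26 on the log2 scale, beside 0.00 for all genes. In 4 of the 10 (Hspa8, Hsph1, Bag3 and Hspa1b) every Tim4KO naive library exceeded every WT naive one, against 7.34% of all genes. Hsph1 differed by 0.71 (SE 0.39, edgeR adjusted p = 0.811), Hspa8 by 0.65 (SE 0.26, edgeR adjusted p = 0.737), Hspa1b by 0.49 (SE 0.36) and Bag3 by 0.41 (SE 0.14, edgeR adjusted p = 0.662). Hsp90aa1, Hspd1, Hspe1 and Hsp90ab1 overlapped between the naive genotypes, with log2 differences of 0.08, 0.16, -0.19 and -0.26. Tim4KO naive 1 was above its own group mean for 9 of the 10 genes. Without it, the median of the 10 was 0.12.

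Among challenged cells the comparison that drew attention to the set is given as values. Hsp90aa1 was 2.60-fold lower in Tim4KO ID8 than in WT ID8 (log2 -1.38, SE 0.19), and the next were Hsph1 at -0.81 (SE 0.38), Hspe1 at -0.69 (SE 0.23), Hspd1 at -0.60 (SE 0.21) and Hsp90ab1 at -0.46 (SE 0.15). Hspa8, Dnajb1 and Bag3 stood at -0.01, 0.05 and 0.17. Hspa1b and Hspa1a lay on the other side, at 0.88 (SE 0.35) and 0.97 (SE 0.32). The groups did not overlap for Hsp90aa1, Hsp90ab1 and Hspe1, lower in Tim4KO ID8 (8.56% of all genes), or for Hspa1a, higher there (7.06%). The edgeR call was made for 1 member, Hsp90aa1, where 0.0502% of all genes were called lower, and nothing is read from that count or that call.

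These values moved with single libraries. Without WT ID8 3 they became -1.62 for Hsp90aa1, -1.20 for Hsph1, -0.89 for Hspe1, -0.83 for Hspd1 and -0.61 for Hsp90ab1. On the other side Hspa1b shrank to 0.57 and Hspa1a to 0.83. Hspa8, Dnajb1 and Bag3 were then at -0.14, 0.13 and 0.10. Without WT ID8 2, Hsph1 was at -0.41 and Hspd1 at -0.38. The count of members called lower was 5 without WT ID8 3, beside 3.49% of all genes, and 0 without WT ID8 2, Tim4KO ID8 1 or Tim4KO ID8 3, and nothing is read from these counts either. Hsp90aa1 stayed between -1.62 and -1.25 in the 12 fits that left out 1 library each. WT ID8 3 was below its group mean for 9 of the 10 genes and WT ID8 2 above it for all 10, and Tim4KO ID8 2 was likewise above its own for all 10. Summed immediate early genes, a sign of handling stress, ran from 1229 to 1406 CPM in WT ID8 and from 1446 to 1815 in Tim4KO ID8. Dusp1 made most of that gap, with a mean of 186 CPM in WT ID8 and 415 in Tim4KO ID8. The other 11 genes summed to 1093 to 1222 CPM in WT ID8 and 1061 to 1308 in Tim4KO ID8, ranges that overlapped, and of all 12 genes 7 had a higher and 5 a lower mean in Tim4KO ID8. Their part in the result was not tested.

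**Figure D4:**
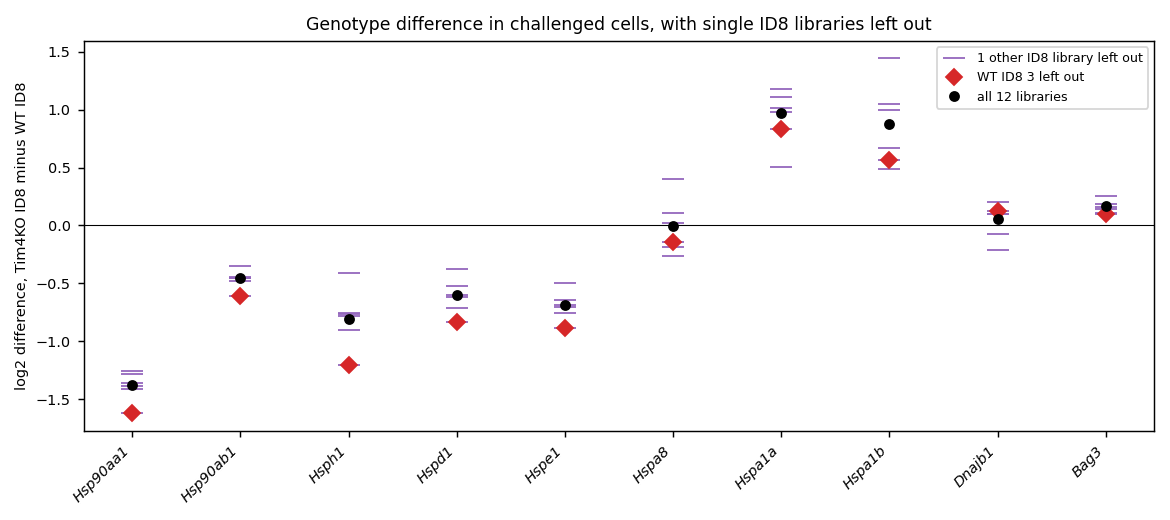
Log2 difference between Tim4KO ID8 and WT ID8 for each of the 10 genes from all 12 libraries (black) and with 1 ID8 library left out (dashes; red diamond for WT ID8 3). Leaving out WT ID8 3 moves Hsph1 from -0.81 to -1.20, and Hsp90aa1 stays at or below -1.25 throughout.

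The genotype and challenge comparisons share libraries. The Tim4KO challenge change minus the WT one, again as a description, was -1.52 for Hsph1 (SE 0.55), -1.46 for Hsp90aa1 (SE 0.27) and -0.76 for Hspd1 (SE 0.29). Hspa8, Hspe1, Dnajb1, Bag3 and Hsp90ab1 followed at -0.65, -0.50, -0.30, -0.24 and -0.19. Hspa1b and Hspa1a were at 0.39 and 0.89. In this contrast edgeR called 0 of the 15943 genes (1186 had an unadjusted p under 0.05), limma voom 0 and DESeq2 4, Hsp90aa1 among them. Without WT ID8 3 the values were -1.92 for Hsph1, -1.70 for Hsp90aa1 and -1.0 for Hspd1. Hspa1b was then at 0.07 and Hspa1a at 0.75. In that fit 3 members were called, beside 1.32% of all genes called lower. This contrast contains the values that chose the set, so nothing is read from these counts or from the call of Hsp90aa1.

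Across the 12 libraries, which share the 4 groups, some members followed each other more closely than others. On the log2 scale the Pearson correlation was 0.99 between Hsp90ab1 and Hspe1, 0.96 between Hsp90aa1 and Hspd1, 0.96 between Hspd1 and Hspe1 and 0.88 between Hsp90aa1 and Hsph1. Hsp90aa1 correlated at 0.24 with Dnajb1 and at -0.10 with Hspa1a. Hspa8 correlated at 0.83 with both Bag3 and Dnajb1. With the group means removed, Hsp90aa1 and Hsph1 correlated at 0.97, and Hspa8 and Hspa1b at 0.85. The genes outside the set whose profile was most like the mean of the 10 were Prmt7 (0.983), Adrm1 (0.979), Sf3a1 (0.979), Gspt1 (0.979), Zmynd19 (0.978) and Zpr1 (0.976), among 10219 candidates of which 5% exceeded 0.913.

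Further genes of the chaperone network were read from lists written for this account with earlier results of these data known. Among 11 tested co-chaperones of HSP90, 8 rose and 0 fell with challenge in WT, and 5 rose and 0 fell in Tim4KO, with median log2 changes of 0.89 and 0.42. Of all tested genes 19.5% rose and 12.3% fell in WT, and 11.5% rose and 5.06% fell in Tim4KO, shares that stand beside each list that follows. At a mean count of at least 50 the Tim4KO split was 5 higher and 1 lower. Stip1, which hands clients from HSP70 to HSP90, rose by 1.90 in WT (SE 0.25, edgeR adjusted p = 0.000148) and 0.98 in Tim4KO (SE 0.25, edgeR adjusted p = 0.0152). Ahsa1, an activator of the HSP90 ATPase, rose by 0.91 and 0.59, and Ppp5c, a phosphatase that docks on HSP90, by 0.65 and 0.49. Without Tim4KO naive 2 the Tim4KO count was 2, and Stip1 was then at 0.80 (edgeR adjusted p = 0.0629). Without Tim4KO ID8 2 it was 3, and Ppp5c was at 0.47 (edgeR adjusted p = 0.0688).

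Partners of HSP70 came next. In WT 10 of 21 tested genes rose and 1 fell, in Tim4KO 5 rose and 0 fell, and the medians were 0.38 and 0.17. Upper-quartile scaling gave 7 higher and 2 lower in WT and 3 higher and 1 lower in Tim4KO, with medians of 0.14 and 0.05. At a mean count of at least 50 the Tim4KO split was 4 higher and 3 lower, and in the fit to the Tim4KO libraries alone it was 6 and 1. Hspa14 and Dnajc2, which act together at the ribosome, and Hspa4, an HSP110 exchange factor, rose in WT by 0.83, 0.76 and 0.81. In Tim4KO Hspa4 rose by 0.49 (edgeR adjusted p = 0.0472), a call kept in 5 of 12 fits with 1 library left out, while Hspa14 (0.32) and Dnajc2 (0.24) did not pass. The gene that fell in WT was Hspa2, an HSP70 known from spermatogenesis, by 0.94 on the log2 scale. The Tim4KO count was 2 without Tim4KO naive 2 or 3, and 3 without any 1 of the Tim4KO ID8 libraries.

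Of 11 mitochondrial chaperones and proteases, 8 rose in WT and 5 in Tim4KO, and 0 fell in either (medians 0.67 and 0.45), where 19.5% and 11.5% of all genes rose. Hspa9, the HSP70 of the matrix, rose by 1.33 and 0.84, and Clpp, a matrix protease subunit, by 0.88 and 0.68. Afg3l2, a protease subunit of the inner membrane, rose by 0.74 in WT and was at 0.28 in Tim4KO (edgeR adjusted p = 0.115). The Tim4KO count was 2 without Tim4KO naive 2 or 3, and 3 without Tim4KO ID8 1 or 2. Upper-quartile scaling gave 5 in WT and 3 in Tim4KO, the fit to the WT libraries alone 5, and no filter on low counts 3 in Tim4KO.

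All 8 subunits of TRiC, the cytosolic ring chaperonin that folds actin and tubulin, rose in WT and 6 of them in Tim4KO, with medians of 1.12 and 0.64. Tcp1 rose by 1.16 and 0.58, Cct7 by 1.13 and 0.80 and Cct2 by 0.94 and 0.59. Without Tim4KO naive 2 the Tim4KO count was 3, and Tcp1 was at 0.51 (edgeR adjusted p = 0.111). Cct7 and Cct2 were called in all 12 fits with 1 library left out.

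Small heat shock proteins, which hold unfolding proteins without ATP, were nearly all below the filter, with 2 of 5 tested. Hspb1 rose from 1.37 ± 0.211 to 10.4 ± 5.17 CPM in WT and from 0.724 ± 0.335 to 7.93 ± 1.45 CPM in Tim4KO (mean ± SD, n = 3 each; log2 2.92 and 3.54, SE 0.38 and 0.43, edgeR adjusted p = 9.08e-05 and 9.27e-05). Hspb1 lay at 0.338 to 0.932 CPM in Tim4KO naive, where the floor was 0.169 to 0.399 CPM. The size of its Tim4KO change thus rests on a base close to the floor. Of 5 tested heat shock factors and regulators edgeR called 0 in either genotype, where 0 and 1 had an unadjusted p under 0.05 and DESeq2 and limma voom called 0. Hsf1 itself was at 0.05 in WT (SE 0.14) and -0.10 in Tim4KO (SE 0.14). The count for these regulators was 1, lower after challenge in WT, when WT naive 2, WT ID8 1 or WT ID8 3 was left out, and 1 in Tim4KO without Tim4KO naive 1.

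Chaperones of the endoplasmic reticulum, which answer to another stress pathway, were read for contrast. Of 14, 12 rose and 1 fell in WT and 9 rose and 1 fell in Tim4KO, and the medians were 1.14 and 0.96. Pdia4, Calr and Pdia6, which form disulfide bonds or bind calcium and glycoproteins, rose by 1.43, 1.21 and 1.11 in WT and by 1.39, 1.47 and 1.42 in Tim4KO. The gene that fell in both was Dnajb9, a cofactor of the reticulum's HSP70, by 0.57 and 0.48 on the log2 scale. Its Tim4KO call was kept in 7 of 12 fits with 1 library left out.

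Between the naive genotypes edgeR called 0 of the 72 tested genes of these 7 lists, where 9 had an unadjusted p under 0.05, and DESeq2, limma voom and edgeR with no filter on low counts also called 0. In challenged cells the counts were 0 in edgeR (21 with an unadjusted p under 0.05), 4 in edgeR with no filter, 6 in DESeq2 and 0 in limma voom, and nothing is read from them. Among challenged cells, as a description, the medians were -0.45 for TRiC, -0.41 for the HSP90 co-chaperones, -0.24 for the reticulum, -0.16 for HSP70 partners and -0.10 for the mitochondrial list. All 8 TRiC subunits and 10 of the 11 HSP90 co-chaperones had values below 0. Without WT ID8 3 the median was -0.60 for TRiC and -0.53 for the HSP90 co-chaperones.

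**Figure D5:**
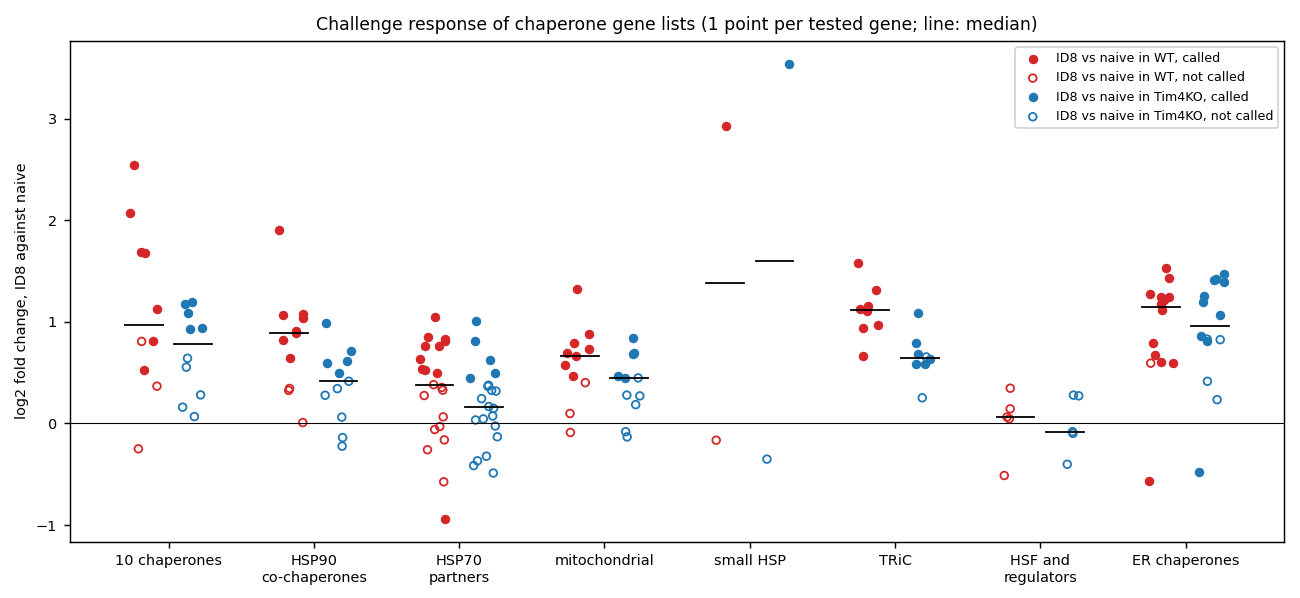
Log2 change with challenge of every tested gene in the 10-gene set and in 7 further chaperone lists, in WT (red) and Tim4KO (blue); filled points were called by edgeR and lines are medians. The TRiC median is 1.12 in WT and 0.64 in Tim4KO, while for the reticulum chaperones it is 1.14 and 0.96.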

How the data were processed

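RNA from sorted macrophages was made into libraries with the SMART-Seq mRNA LP kit, per the labels' protocols. The authors deposited raw counts per Ensembl gene, 57010 genes in 12 libraries; 0 per-sample columns were unmatched. FastQC, STAR 2.5, and the builds mm10 and GRCm39 are named in the submitters' processing notes, with no role for either build. The counting program, the annotation and the handling of strand and of reads with several matches are not given in the sources used here. GENCODE vM21 named 52029 identifiers and gave exon lengths, and sequences come from RefSeq GRCm38.p6.

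edgeR 4.0.16 (R 4.3.3) fitted 1 quasi-likelihood model with 4 group means to all 12 libraries after filterByExpr (15943 genes) and TMM scaling, with robust dispersions. Tests were two-sided with Benjamini-Hochberg adjustment over all tested genes, called under 0.05, and the SE is the absolute log2 change over the square root of F. The fits were tested on simulated data for the WT challenge alone, and no genotype comparison was simulated. Changes were set in 100 genes at 2-fold and 100 at 4-fold, all with a mean count of at least 50. At 2-fold edgeR recovered 76, DESeq2 80 and limma voom 73. At 4-fold they recovered 96, 100 and 96, with 3, 18 and 3 false calls. Floors take in counting error alone, and duplicates made by PCR were not removed here. Near-identical copies were found with blast 2.17.0 (at least 95% identity over 200 bases).

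Members and lists were chosen with earlier results of these data known. All 10 members are named; from each list, up to 3 called genes with the smallest p in the WT challenge comparison are named, and Hspa2, Dnajb9 and Hsf1 were named after their values were seen. Genes most like the set had the highest Pearson correlation with the mean of its centred log2 CPM, at a mean count of at least 50.

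Replicate numbers were checked as pairs through the correlation of deviations from group means over genes. All 3 same-number pairs exceeded 0.1 for WT naive with WT ID8 (0.10 to 0.31), and 0 of 3 for Tim4KO naive with Tim4KO ID8 (-0.08 to 0.08). Yet WT naive 1 correlated more with WT ID8 2 (0.14) than with WT ID8 1 (0.10). Likewise WT naive 2 correlated more with WT ID8 1 (0.16) than with WT ID8 2 (0.11). The check therefore does not show that the numbers mark pairs. The pairing comes from the numbers in the labels, which name no shared animal or day. Alternatives were other scalings and filters, DESeq2 1.42.0, limma 3.58.1 voom, fits to 2 groups, a replicate block, leaving out each library, and, added after the data were seen, summing Hspa1a with Hspa1b and repeating each list count under every setting.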

Additional observations from a re-analysis of the deposited data

How the results depend on the processing

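With the replicate block no member's call changed. The members called were 7 in the WT challenge and 5 in the Tim4KO challenge. For genotype they were 0 in naive and 1 in ID8 cells, and for the difference between responses 0. Of 12 libraries 5 correlated best with one of their own number. Leaving out each library in turn gave 6 to 9 members called in the WT challenge, 3 to 6 in the Tim4KO challenge, 0 in naive genotype, 0 to 5 in ID8 genotype and 0 to 3 for the difference between responses. With no filter on low counts the last 3 were 1, 4 and 1; DESeq2 gave 1 for the difference between responses, and the fit to 2 groups gave 0 in ID8 genotype. Upper-quartile scaling moved the median of all genes to -0.28 in WT and -0.17 in Tim4KO, called 5 members in each, and turned the split of all calls in WT from 3105 higher and 1962 lower to 1799 and 3508 (Tim4KO 1836 and 806 to 1322 and 1394).

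Hsp90aa1, Hsp90ab1 and Hspe1 in both genotypes, and Hsph1 and Hspd1 in WT, were called after challenge in all 8 alternatives and all 12 fits with 1 library left out. Without WT ID8 3 the WT challenge log2 values were 1.31 for Hsp90ab1, 1.94 for Hspd1, 1.90 for Hspe1, 0.97 for Hspa8 and 0.62 for Bag3. Dnajb1 was then at 0.31 and Hspa1a at -0.11. Values that changed sign were all uncalled. For Dnajb1 in the Tim4KO challenge they were -0.042 with upper-quartile scaling and -0.031 at a mean count of at least 50, and leaving out libraries gave -0.10 to 0.35. In naive genotype leaving out libraries gave -0.44 to 0.019 for Hspe1, -0.032 to 0.30 for Hspa1a and -0.041 to 0.14 for Hsp90aa1. In ID8 genotype it gave -0.27 to 0.40 for Hspa8 and -0.21 to 0.20 for Dnajb1. The 8 alternatives gave -0.072 to 0.089 and -0.013 to 0.14 for these genes. For the difference between responses, Hspa1b ran from -0.0060 to 0.94 with a library left out. In WT, Hspa1a at -0.25 and Hspa1b at 0.81 gave 0.55 once summed. Hspa1b held 64.8% to 87.8% of the summed counts, so the sum mostly reads Hspa1b. The cause of the other sign changes was not tested.

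Counts over all genes varied more. In naive genotype 7 became 59 with no filter, 42 with DESeq2, 4 with limma voom, 2 in the fit to 2 groups and 3 with the block, and leaving out a library gave 1 to 29. In ID8 genotype 9 became 264 with no filter, 227 with DESeq2 and 14 with the block, and leaving out a library gave 1 to 997, the last without WT ID8 3. The challenge counts were 5067 in WT (3362 to 7230 with a library left out, 3102 in 2 groups) and 2642 in Tim4KO (1222 to 3595, 3827 in 2 groups). The difference between responses went from 0 to 73 with no filter, 4 with DESeq2 and 368 without WT ID8 3. At 31 to 106 counts a library, depth limits Hspa1a most.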
